A study of Mus musculus with 20 samples.

Results

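The genes described here are 46 collagens and matrix remodelling genes, out of 21154 genes that could be named on the arrays. They were chosen by symbol, with earlier results of these data known, and all 46 were found. Their counts therefore describe the list and are no independent test of it. The list holds fibrillar, basement membrane and other collagens, matrix glycoproteins and proteoglycans, and crosslinking enzymes. It also holds metalloproteinases and their inhibitors, and growth factors with 1 receptor. The mice were C57BL/6J males, 5 weeks old when the diets began, and ate them for 13 weeks. The control diet (CD) held 10% of its calories as fat and the high fat diet (HFD) 60%. Another group ate the high fat diet with 2% porphyran by weight (HFD+PP), a sulphated polysaccharide of the red seaweed sold as nori. The last ate it with 2% nori extract by weight (HFD+Ex). Liver, brown fat, the white fat of the mesentery, ileum and colon were each measured on 1 one-colour array per diet, 20 arrays in all, and every array carries a pool of 7 mice, so no spread between mice can be seen.

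Fibrillar collagens form the tensile fibres of connective tissue, type IV collagen and laminins form the sheet on which epithelium, fat cells and vessels rest, and type VI collagen forms a fine network around cells and is abundant in fat. Lysyl oxidases crosslink the fibres, metalloproteinases cut them, and the Timp proteins block metalloproteinases. Transforming growth factor beta is the best known inducer of these genes in fibroblasts and in hepatic stellate cells, the main collagen producers of injured liver.

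A level is the log2 signal of a gene's brightest probe minus the 75th percentile of all probes on the array. Levels are compared only for 1 probe across arrays, never between genes. Where 4 levels stand in a row they are those of the CD, HFD, HFD+PP and HFD+Ex arrays. A comparison counts a gene as measured if either of its 2 arrays had the probe well above background. The gene rose or fell when its level differed by at least 1 log2, which is 2-fold. With 1 array per tissue and diet there is no test of a diet within a tissue, and a difference between diets over the 5 tissues was not tested. Where the dimmer array was not well above background the difference is a bound against the floor of that array, written "at least". Probes printed 10 times on each array give the spot noise: a difference between 2 single spots has a standard deviation of 0.093 log2 at the median of these probes.

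The arrays had between 50.7% and 67.9% of spots well above background. The tissue labels fit their markers. The summed signal of 8 hepatocyte genes was 12.45 to 12.57 log2 in liver and at most 5.42 elsewhere, that of 7 brown fat genes 11.63 to 11.93 in brown fat and at most 7.33 elsewhere, and that of 8 intestinal epithelial genes 9.33 to 10.81 in ileum and colon and at most 7.40 elsewhere. Mesenteric fat stood apart in exocrine pancreas and lymphocyte genes. The summed signal of 9 exocrine pancreas genes was 10.15, 4.76, 10.71 and 9.35 on its 4 arrays, against at most 2.96 in any other tissue. That of 8 lymphocyte genes was 6.21 to 7.30 on its CD and supplement arrays and at most 4.56 in any other tissue. In pooled tissue, fewer cells of a type and less RNA per cell cannot be told apart. The HFD and CD arrays of each tissue lay on the same slide. In mesenteric fat the supplement arrays lay on another slide than the HFD array, so slide and supplement cannot be told apart there, and the same holds for the HFD+Ex array of brown fat.

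Under the high fat diet 23 of 43 measured members rose in liver and 0 fell, while 3.48% of all 15378 genes measured rose and 1.34% fell. In mesenteric fat 34 of 46 rose and 1 fell, with 8.86% of genes higher and 8.46% lower. In brown fat 17 of 44 rose and 0 fell, with 6.26% higher and 3.08% lower. The median difference of the members was 1.15 log2 in liver, 1.43 in mesenteric fat and 0.85 in brown fat, while the median of all measured genes was -0.05, 0.11 and -0.13.

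The gut gave other values. In ileum 1 of 45 measured members rose and 2 fell, with 1.62% of genes higher and 2.28% lower. Of the 45 differences 44 were below 0, with a median of -0.41 against -0.0021 for all genes. Of all genes 49.8% were above 0. In colon 1 of 46 rose and 0 fell, with 0.45% higher and 1.7% lower, and the median was 0.12.

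**Figure D1:**
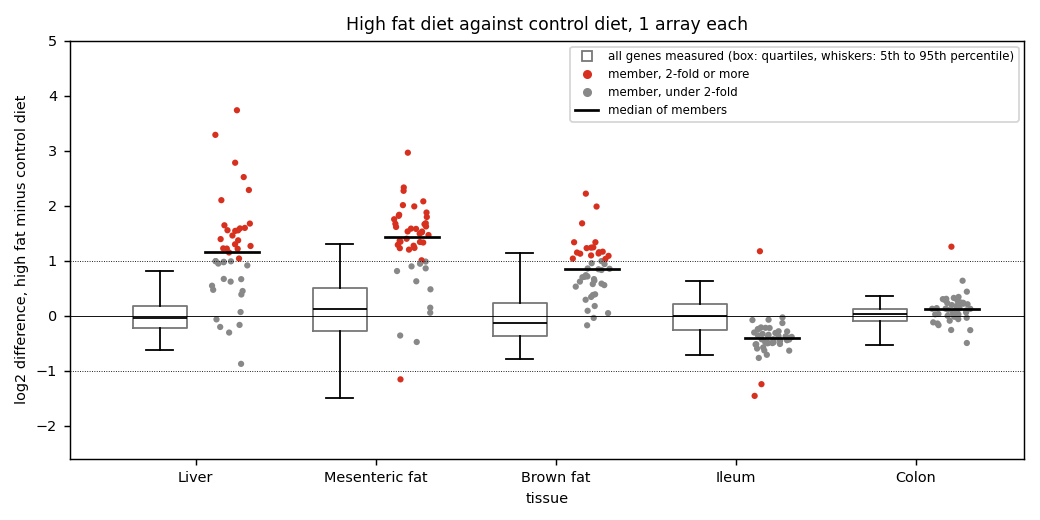
Log2 difference between the high fat and control diet arrays of each tissue, for all measured genes (boxes, quartiles, with whiskers from the 5th to the 95th percentile) and for the members (points, bounds included, with a line at their median). The members' medians lie at 1.15, 1.43 and 0.85 in liver, mesenteric fat and brown fat, and at -0.41 and 0.12 in ileum and colon.

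In liver and both fats together, 11 of the 43 members measured in all 3 tissues rose in each of them, while 64 of 13767 genes did (0.465%). The 11 were Col1a1, Col1a2, Col3a1, Col5a1, Lamb3, Col6a1, Col6a2, Col6a3, Col16a1, Timp1 and Ccn5. Counted over the 5 tissues, 9 members rose in none, 11 in 1, 15 in 2, 9 in 3 and 2 in 4. These counts use the brightest probe of each gene. By it, the members that rose in none were Col5a3, Sparc, Tnc, Dcn, Mmp9, Mmp14, Timp2, Timp3 and Tgfb1, although Sparc and Timp2 have other probes that passed 2-fold.

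Type I and type III collagen, the main fibre proteins, made up the largest changes of the fibrillar group in liver. Col1a1, which encodes 1 chain of type I collagen, was at -0.68, 2.61, 0.35 and 0.40 in liver. The other chain gene, Col1a2, was at 2.03, 4.13, 2.57 and 2.54, and Col3a1, which encodes type III collagen, at 0.66, 3.18, 1.41 and 1.31. The HFD array is the highest of the 4 for each of the 3 genes, by 3.29, 2.10 and 2.52 log2 over CD. Of the 6 fibrillar collagens 4 rose in liver, 5 in mesenteric fat and 5 in brown fat. In mesenteric fat Col1a1 was at 3.84, 5.51, 4.57 and 4.87, and in brown fat at 3.61, 4.95, 4.34 and 4.20, again with HFD highest. Col5a3, a minor fibrillar chain, rose in none of the 5 tissues. It was at 2.86, 2.55, 2.54 and 2.53 in liver, where Col5a1, another type V collagen chain, rose by 1.30 log2. In brown fat Col5a1 rose by 1.33 log2, as did Col1a1. In ileum the 6 differences ran from -0.77 to -0.23 and in colon from -0.09 to 0.23, so none passed 2-fold there.

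Promoter sequences were taken for the members whose changes the results turn on. The RefSeq table of GRCm38.p6 held 34 promoters of 29 members. The 250 bases before the start of Col1a2 (chr6:4505368-4505617, plus strand) are shown for the fibrillar collagens, Col1a1 not being among those 29. Timp1 (chrX:20869916-20870165, plus strand) and Mmp3 (chr9:7445572-7445821, plus strand) are shown as the members that moved in opposite directions in different tissues, and Mmp13 (chr9:7272264-7272513, plus strand) as the collagenase gene with large bounds. Capitals mark CCAAT on either strand in Col1a2 and Timp1, and TGANTCA, the letters that AP-1 factors bind, in Mmp3 and Mmp13.
Col1a2: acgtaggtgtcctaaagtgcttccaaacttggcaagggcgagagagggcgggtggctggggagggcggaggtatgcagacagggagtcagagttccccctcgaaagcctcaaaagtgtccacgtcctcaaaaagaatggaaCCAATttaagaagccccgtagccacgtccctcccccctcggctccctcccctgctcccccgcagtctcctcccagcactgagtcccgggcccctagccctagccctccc
Timp1: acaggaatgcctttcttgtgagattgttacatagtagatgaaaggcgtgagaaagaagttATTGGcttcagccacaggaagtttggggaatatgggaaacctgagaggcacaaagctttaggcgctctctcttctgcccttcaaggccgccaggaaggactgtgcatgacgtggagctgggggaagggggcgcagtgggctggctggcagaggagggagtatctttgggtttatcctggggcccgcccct
Mmp3: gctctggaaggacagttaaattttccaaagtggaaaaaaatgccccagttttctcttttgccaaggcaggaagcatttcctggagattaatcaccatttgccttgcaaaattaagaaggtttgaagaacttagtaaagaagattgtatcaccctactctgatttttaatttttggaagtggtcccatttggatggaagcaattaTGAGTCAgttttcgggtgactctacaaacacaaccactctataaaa
Mmp13: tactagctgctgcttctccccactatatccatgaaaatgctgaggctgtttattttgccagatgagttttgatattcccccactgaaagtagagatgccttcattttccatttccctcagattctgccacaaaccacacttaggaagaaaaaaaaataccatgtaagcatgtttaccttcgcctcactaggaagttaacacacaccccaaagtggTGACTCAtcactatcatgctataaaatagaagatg
The last base of the motif lies 105 bases before the start in Col1a2 and 186 in Timp1, where it reads ATTGG on the printed strand. It lies 40 bases before the start in Mmp3 and 29 in Mmp13. Searched on both strands, TGANTCA stood in 3 of the 34 member promoters (8.82%) and in 6.75% of all 32851 promoters of the same length. CCAAT stood in 11 (32.4%) against 33.8%, TATAAA in 8 (23.5%) against 12.4%, CAGACA, which Smad proteins bind, in 11 (32.4%) against 17.1%, and GGGCGG, the GC box of Sp1, in 19 (55.9%) against 32.7%. None of these motifs contains another. A match describes letters only.

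Among basement membrane genes, mesenteric fat was the tissue where all 5 rose. Col4a1 and Col4a2, which encode the chains of the most common type IV collagen and lie head to head on chromosome 8, had differences at most 0.09 log2 apart in each of the 5 tissues. Under HFD they differed from CD by 1.53 and 1.58 log2 in mesenteric fat, by 0.99 and 0.95 in liver and by 0.57 and 0.66 in brown fat. In ileum both were at -0.50, and colon had 0.08 and 0.12. Col15a1 and Col18a1, collagens that link basement membranes to the matrix beyond them, rose by 1.29 and 1.49 log2 in mesenteric fat. In liver Col18a1 was at 7.12, 7.05, 7.05 and 7.08, nearly level over the diets. Lamb3, which encodes a laminin chain of epithelial basement membranes, rose in 4 of the 5 tissues. It was at -0.50, 1.06, 0.46 and 0.30 in liver. Mesenteric fat had -1.71, 0.56, -0.47 and -0.84, with HFD highest, and brown fat -0.45, 0.70, 0.95 and 0.91, with CD alone low. In ileum, where it was at 3.19, 4.36, 3.74 and 4.01, it was the 1 member above its CD level under HFD.

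Type VI collagen, the network-forming collagen around fat and muscle cells, rose with all 3 chains in liver and both fats. Col6a1, Col6a2 and Col6a3 were higher by 1.46, 1.15 and 1.54 log2 in liver, by 1.88, 2.01 and 1.99 in mesenteric fat, and by 1.24, 1.24 and 1.16 in brown fat. Col6a1 and Col6a2, neighbours on chromosome 10, were at 0.43, 1.89, 0.79 and 0.93 and at -2.67, -1.53, -2.43 and -2.51 in liver. Of the 7 other collagens 6 rose in liver, 6 in mesenteric fat and 5 in brown fat. Col8a1, a short-chain collagen of vessel walls, had the largest difference of any member in mesenteric fat, at -3.33, -0.36, -2.08 and -1.93. Col12a1, which sits on the surface of fibres, rose at least 3.19-fold in liver, where it was above background on the HFD array alone, and 2.05-fold in brown fat. Col16a1 rose 2.32-fold in liver, 3.56-fold in mesenteric fat and 2.18-fold in brown fat.

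**Figure D2:**
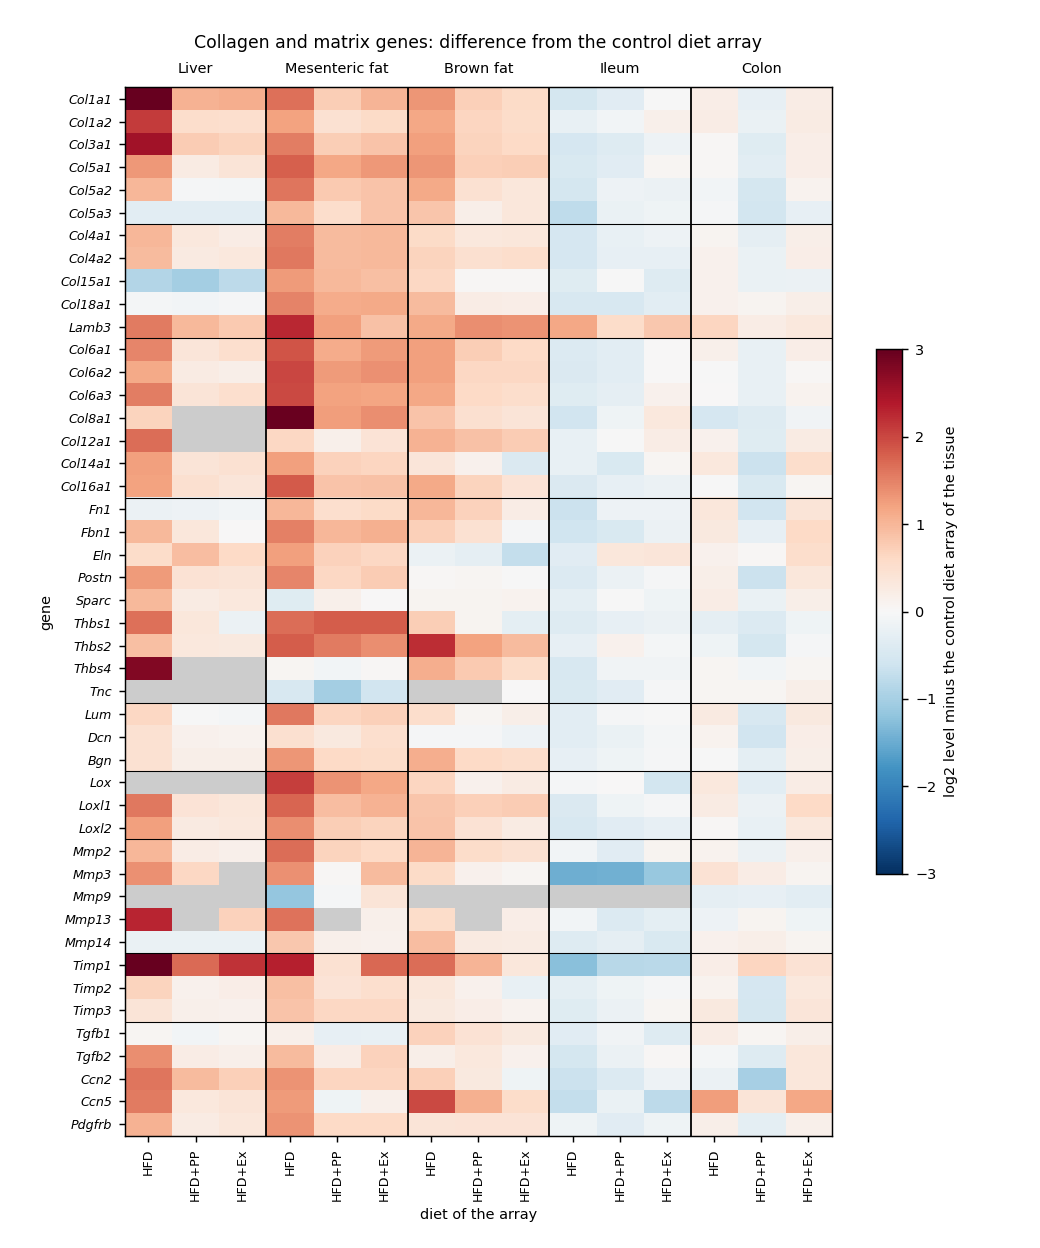
Log2 difference of each member (rows, in role groups divided by lines) from the control diet array of the same tissue, on the HFD, HFD+PP and HFD+Ex arrays (columns), with bounds used where 1 array was not well above background and grey where neither was. Red is a level above the control diet array by any amount. In the HFD columns of liver and both fats 23, 34 and 17 members rose. Supplement columns of these tissues hold red cells too, such as those of Col1a1.

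The matrix glycoproteins were less uniform. In liver 3 of 8 measured rose, in mesenteric fat 6 of 9 and in brown fat 2 of 8. The thrombospondins, glycoproteins that bind cells, proteases and latent growth factors, differed by tissue in which gene rose. Thbs1 rose 3.12-fold in liver and 3.21-fold in mesenteric fat, Thbs2 3.52-fold in mesenteric fat and 4.65-fold in brown fat, and Thbs4 at least 6.87-fold in liver and 2.14-fold in brown fat. Thbs2 was at -2.80, -0.59, -1.60 and -1.86 in brown fat, the largest difference there. Thbs4 was above background on 1 of the 4 liver arrays, HFD, at -2.32. Fibronectin, which hepatocytes also secrete into plasma, showed little in liver: Fn1 was at 8.28, 8.11, 8.14 and 8.20. In mesenteric fat it rose 2.01-fold. Postn, which encodes periostin, rose 2.41-fold in liver and 2.76-fold in mesenteric fat, and was at 2.72, 2.76, 2.77 and 2.70 in brown fat. The elastic fibre genes Fbn1 and Eln rose in mesenteric fat, by 1.51 and 1.23 log2, and in no other tissue. Tnc rose in none of the 5 tissues and was not above background on any liver array.

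Sparc, a collagen-binding glycoprotein, has 3 probes that disagree. Its brightest probe was at 8.79, 8.42, 8.94 and 8.80 in mesenteric fat, a difference of -0.36 log2 under HFD, while the differences over its probes ran up to 1.06. In liver they ran from -0.06 to 1.02. No direction is given for this gene in either tissue. Of the 11 members with several probes it was the only one in which a probe past 2-fold under HFD met another of opposite sign. Probes of the same sign fell on either side of 2-fold under HFD for Timp2 and Tgfb2, described below, and for 3 others. These were Col15a1 in brown fat, at 0.30 to 1.23 log2, Loxl2 in liver, at 0.55 to 1.22, and Col14a1 in mesenteric fat, at 0.96 to 1.23.

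The small leucine-rich proteoglycans, which coat collagen fibres and set their width, had the lowest median difference of the role groups in liver under HFD, at 0.47 log2. Their median was 1.33 in mesenteric fat and 0.53 in brown fat. None of the 3 rose in liver, where the differences lay between 0.45 and 0.62 log2. In mesenteric fat Lum rose 2.98-fold and Bgn 2.51-fold, and Dcn was at 7.31, 7.79, 7.61 and 7.81. In brown fat Bgn rose 2.12-fold. Dcn and Lum lie next to each other on chromosome 10, and their differences in mesenteric fat were 0.48 and 1.58 log2.

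All 3 crosslinking enzymes rose in mesenteric fat, Lox by 2.08, Loxl1 by 1.75 and Loxl2 by 1.40 log2. Lox was at -2.19, -0.11, -0.84 and -1.04 there. In liver Loxl1 rose by 1.59 and Loxl2 by 1.22 log2, and Lox was not above background on any of the 4 arrays. In brown fat none of the 3 passed 2-fold, with differences of 0.64 to 0.85.

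Of the metalloproteinases, Mmp2, a gelatinase made by fibroblasts, rose 3.18-fold in mesenteric fat and 2.04-fold in brown fat. Mmp13, the main collagenase of rodents, rose at least 4.87-fold in liver and at least 3.08-fold in mesenteric fat. It was above background on 2 of the 4 arrays in each of these tissues. Mmp3, stromelysin, rose at least 2.58-fold in liver and 2.57-fold in mesenteric fat, and fell in ileum, where it was at -1.77, -3.23, -3.21 and -2.90. Mmp9, a gelatinase made largely by leukocytes, was the 1 member that fell in mesenteric fat, at -3.33, -4.49, -3.37 and -2.95. It was not above background on any array of liver, brown fat or ileum. Mmp14, a membrane-bound activator of Mmp2, rose in none of the 5 tissues.

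Timp1, the inducible inhibitor of metalloproteinases, had the largest difference of any member in liver. It was at -4.03, -0.30, -2.33 and -1.85 there, 13.3-fold higher under HFD than under CD. It rose 5.03-fold in mesenteric fat, at 0.34, 2.68, 0.79 and 2.06, and 3.20-fold in brown fat, at -1.62, 0.06, -0.60 and -1.27. In ileum it fell 2.37-fold, at -0.80, -2.05, -1.63 and -1.62, with CD the highest of the 4 arrays. In colon it was at -1.21, -1.01, -0.57 and -0.79. The brightest probes of Timp2 and Timp3 passed 2-fold in none of the tissues, with differences of 0.67 and 0.38 log2 in liver and, their highest, 0.90 and 0.86 in mesenteric fat. A second Timp2 probe differed by 1.22 in mesenteric fat and 1.17 in brown fat, past 2-fold in both.

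Among the growth factor genes, Tgfb1 rose in none of the tissues and was at -1.17, -1.11, -1.25 and -1.10 in liver. Tgfb2 rose 2.62-fold in liver, at -3.45, -2.06, -3.23 and -3.31. In mesenteric fat its 2 probes differed by 0.94 and 1.03 log2, on either side of 2-fold. Ccn2, a secreted target of transforming growth factor beta, rose 3.02-fold in liver and 2.54-fold in mesenteric fat, and Pdgfrb, a receptor of fibroblasts and pericytes, 2.05-fold and 2.53-fold. Ccn5, a relative of Ccn2, rose in 4 tissues: 2.93-fold in liver, 2.41-fold in mesenteric fat, 3.96-fold in brown fat and at least 2.38-fold in colon. In brown fat it was at -2.93, -0.94, -1.85 and -2.37, and in liver at -4.78, -3.23, -4.47 and -4.39. In mesenteric fat it was at -0.03, 1.24, -0.16 and 0.12, so that HFD was the highest array in all 3. In colon the CD array was not above background.

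**Figure D3:**
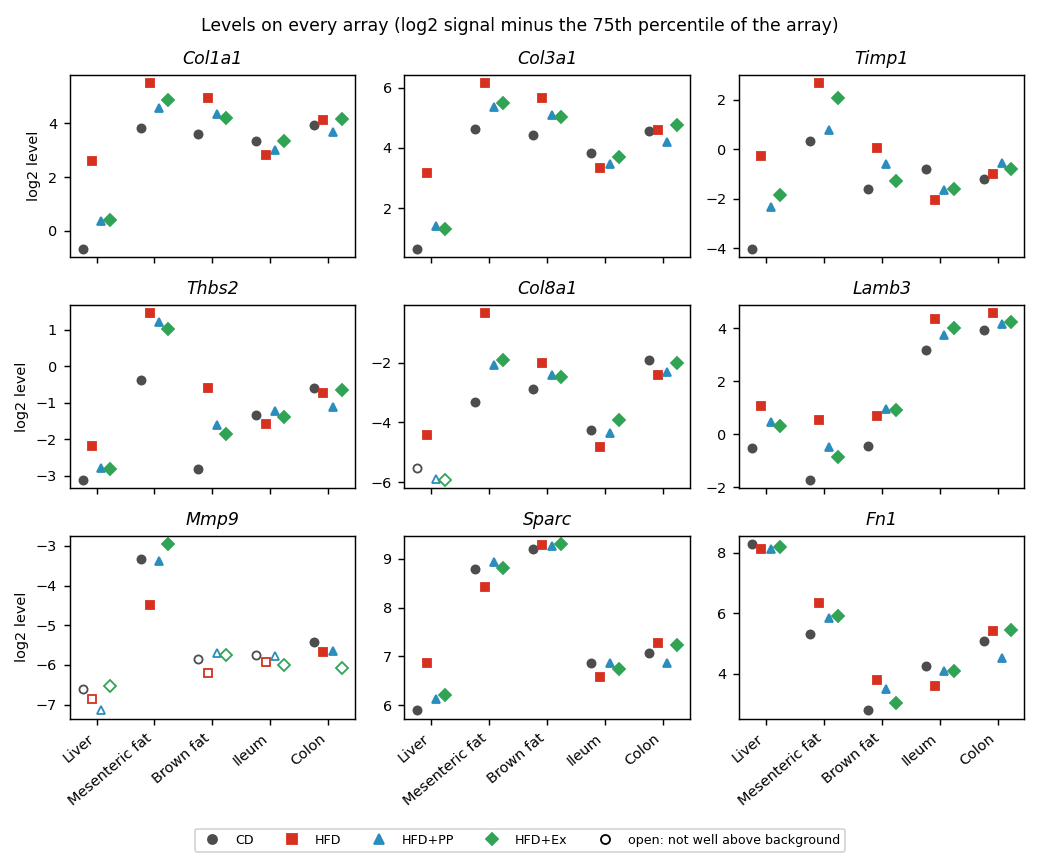
Levels of 9 members on each of the 20 arrays (log2 signal minus the 75th percentile of the array; colour and shape give the diet, open symbols were not well above background). Timp1 is highest under HFD in liver, mesenteric fat and brown fat, at -0.30, 2.68 and 0.06, and lowest under HFD in ileum, at -2.05.

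Other genes of matrix production were counted from 4 further lists. Of 17 collagen processing genes 4 rose in liver, 9 in mesenteric fat, 1 in brown fat and 0 in ileum and colon, and 0 fell in any tissue. Fkbp10 and Adamts2, which fold and trim procollagen, were up by 1.27 and 1.32 log2 in liver, and Pcolce2 and Plod2 by 2.07 and 1.48 in mesenteric fat. In brown fat the 1 gene was Pcolce, by 1.29. Of 23 other matrix genes 6 rose in liver, 12 in mesenteric fat and 3 in brown fat, with medians of 0.56, 1.03 and 0.52 log2 and -0.38 in ileum. Lama2 and Fbln5 led in liver, by 1.36 and 1.29, Mfap4 and Fbln2 in mesenteric fat, by 1.83 and 1.77, and Emilin1 and Mfap4 in brown fat, by at least 1.76 and by 1.21. Of the other proteases and inhibitors 6 of 14 measured rose in liver and 1 fell, 11 of 17 rose in mesenteric fat and 1 fell, and 5 of 15 rose in brown fat. Mmp12, the elastase of macrophages, rose by 5.85 log2 in mesenteric fat and by at least 3.28 in brown fat, and Ctsk, a collagen-degrading cathepsin, by 3.14 in mesenteric fat. The 2 genes that fell were Reck in liver, at -1.17, and Mmp7 in mesenteric fat, at -2.39. In the transforming growth factor beta list, which holds receptors, Smads and latency proteins, 2 of 18 measured genes rose in liver. In mesenteric fat 2 of 18 rose and in brown fat 0 of 17. Of all genes, 3.48%, 8.86% and 6.26% rose in these tissues, in the same order. The listed genes that rose in liver were the latency proteins Ltbp2 and Ltbp1, by 1.53 and 1.05 log2. Those in mesenteric fat were Ltbp3, another latency protein, and Inhba, by 1.45 and 1.43.

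Markers of other cells moved with the members in some of these comparisons. In liver 5 of 6 measured mesothelial genes rose, with a summed level of -1.18, 0.28, -0.50 and -0.43 over the diets. Of 8 measured smooth muscle and myofibroblast genes 5 rose. Their summed level was 2.66, 3.75, 2.97 and 2.50 over the 8 genes with a value on all 4 arrays, Myl9 having none with porphyran. Of 6 measured adipocyte genes 5 rose, with a summed level of 2.34, 5.61, 4.11 and 4.32. The largest differences in that list were those of Cfd, at 6.91 log2, and Cidec, at 4.28. Adipoq was above background on the HFD array alone, and Plin1 and Lep on neither the HFD nor the CD array. Of 9 fibroblast genes, a list that holds the members Lum and Dcn, 2 rose. None of 8 hepatic stellate genes rose (median 0.47 log2), nor any of 9 macrophage, 8 hepatocyte or 8 endothelial genes. The part of these cells in the liver result was not tested.

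In mesenteric fat several lists differed widely. All 9 exocrine pancreas genes and all 8 lymphocyte genes fell, with medians of -5.94 and -3.59 log2, all 8 intestinal epithelial genes rose, with a median of 2.55, and 7 of 9 macrophage genes rose, with 1.18. Lymphocyte genes summed to 7.30, 3.71, 6.28 and 6.21 and intestinal epithelial genes to 2.55, 5.13, 4.93 and 2.81. The medians were 0.74 for smooth muscle and 0.49 for adipocyte genes, and 3 of 9 fibroblast genes rose and 2 fell. In brown fat 8 of 9 macrophage genes rose, with a median of 1.57, as did 5 of 8 hepatocyte genes, and 1 of 9 fibroblast genes. In ileum the median of 9 smooth muscle genes was -0.50 and 4 of 8 adipocyte genes fell. The part of these cell types in the members' differences was not tested.

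Porphyran and nori extract were each compared with the high fat diet alone. These comparisons share the HFD array with each other and with the comparison against the control diet, so a high or low value on that array enters all of them, and their values are set side by side only. In liver 15 of 42 measured members fell with porphyran and 0 rose, with 1.55% of genes lower and 0.579% higher, and 14 of 42 fell with nori extract and 0 rose, with 1.59% lower and 1.46% higher. The members' medians were -0.76 and -0.86 log2, against 0.04 and 0.03 for all genes.

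Of the role groups, fibrillar collagens had the lowest median in liver with both supplements, at -1.30 log2 with porphyran and -1.33 with the extract. Of the 6, 5 fell with porphyran and 4 with the extract. Col1a1 was 4.78-fold lower with porphyran and 4.62-fold with the extract, and Col3a1 3.39-fold and 3.64-fold. Timp1 was 4.08-fold and 2.94-fold lower, and Thbs1 2.47-fold and 3.55-fold. Col1a2 was 2.95-fold and 3.03-fold lower. Thbs4 was at least 7.09-fold and at least 6.10-fold lower, and Mmp13 at least 4.75-fold lower with porphyran. Of the basement membrane genes and of the proteoglycans none passed 2-fold with either supplement. On the same arrays 3 of 7 measured smooth muscle genes fell with porphyran and 6 of 8 with the extract, and 2 of 6 mesothelial genes and 3 adipocyte genes fell with each. Of 9 fibroblast genes 1 fell with porphyran, Pi16, at -1.25, and 2 with the extract, Pi16 and Dpt, both at -1.30. No hepatic stellate, macrophage or hepatocyte gene passed 2-fold with either supplement. Whether those cells have a part in the members' values was not tested.

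In mesenteric fat 7 of 46 members fell with porphyran and 1 rose, with 4.2% of genes lower and 4.69% higher. With nori extract 5 fell and 1 rose, with 3.77% lower and 3.68% higher. The members' medians were -0.685 and -0.61 log2, with 43 and 42 of 46 differences below 0. Over all genes the medians were -0.07 and -0.04, with 41.6% and 44.2% of differences above 0. The member that rose was Mmp9 with both, 2.17-fold and 2.90-fold. Col8a1 was 3.29-fold lower with porphyran and 2.97-fold lower with the extract, Lamb3 2.05-fold and 2.63-fold, Ccn5 2.64-fold and 2.17-fold, and Mmp2 2.00-fold and 2.10-fold. Mmp13 was at least 6.05-fold lower with porphyran and 2.79-fold lower with the extract, and Mmp3 2.50-fold lower with porphyran. Timp1 was 3.69-fold lower with porphyran, and its difference with the extract was -0.61 log2. None of the 6 fibrillar collagens passed 2-fold, with differences from -0.93 to -0.47 with porphyran and from -0.76 to -0.13 with the extract. On these arrays the 9 pancreas genes and the 8 lymphocyte genes rose with each supplement, 4 of 9 macrophage genes fell with each, and the 8 intestinal epithelial genes fell with the extract. Slide differed too, as stated above, and the part of these cells was not tested.

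In brown fat 1 of 44 measured members, Thbs2, fell with porphyran and 0 rose, with 2.18% of genes lower and 1.52% higher. With nori extract 4 of 45 fell and 0 rose, with 3.33% lower and 0.846% higher. These were Ccn5, 2.69-fold, Timp1, 2.52-fold, Thbs2, 2.42-fold, and Thbs1, 2.06-fold. The members' medians were -0.46 and -0.56 log2, with 39 of 44 and 41 of 45 differences below 0. Over all genes the medians were 0.04 and 0.09, with 57.7% and 65.3% of differences above 0. Of 9 macrophage genes 0 fell with porphyran (median -0.65) and 6 with the extract (median -1.07). Of 8 hepatocyte genes 5 fell with each, and 4 of 8 skeletal muscle genes rose with porphyran. The part of these cells was not tested.

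In the gut no member passed 2-fold with either supplement. In ileum 1.95% of genes were higher and 0.951% lower with porphyran, and 1.14% and 0.701% with nori extract. The members' medians were 0.16 and 0.34 log2, with 38 and 37 of 44 differences above 0. Over all genes the medians were -0.01 and -0.03, with 47.3% and 44.2% of differences above 0. The largest member differences were those of Eln, which encodes elastin, at 0.69 with porphyran, and of Col8a1, at 0.91 with the extract. Of 8 adipocyte genes 5 rose with porphyran and 1 with the extract, and smooth muscle genes had medians of 0.62 and 0.36. In colon 1.74% of genes were higher and 1.11% lower with porphyran, and 1.14% and 0.396% with the extract. There 41 of 46 member differences were below 0 with porphyran, with a median of -0.38, and the extract gave a median of 0.08. Over all genes the medians were -0.03 and -0.01, and 45.1% of differences were above 0 with porphyran. The lowest member values with porphyran in colon were those of Col14a1, at -0.96, and of Fn1, at -0.90. Fn1 was at 5.09, 5.43, 4.52 and 5.46 over the diets, with the HFD+PP array the lowest of the 4. With porphyran the median of the fibroblast genes was -0.68 and that of the smooth muscle genes -0.39 in colon, and 5 of 9 pancreas genes rose with each supplement. Their part was not tested.

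**Figure D4:**
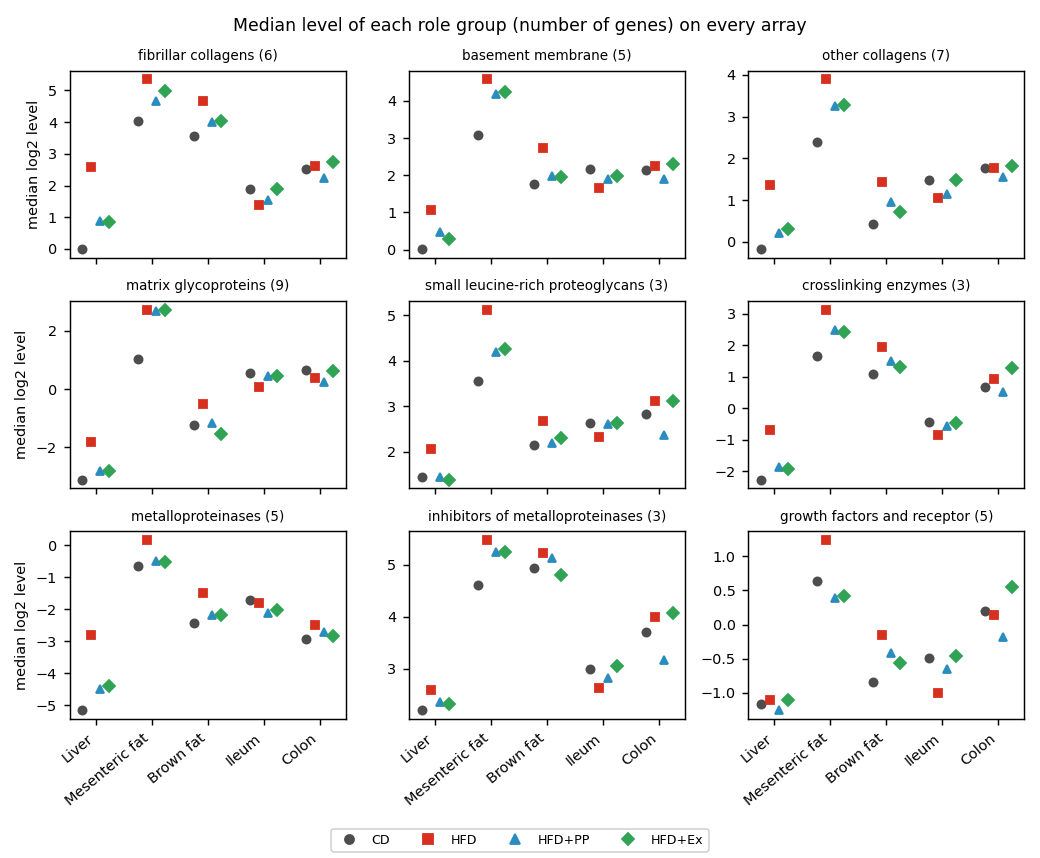
Median level over the members of each role group (number of genes in brackets) on each of the 20 arrays, in log2 relative to the 75th percentile of the array; colour and shape give the diet. In liver the fibrillar collagens stand at 2.58 under HFD and at -0.01 under CD. These medians fall on different genes, so the distance between them is not the change of a gene. The median of the 6 differences was 1.70 log2. In colon the HFD+PP array is the lowest of the 4 for the proteoglycans.

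Between the supplements few members differed. In mesenteric fat Timp1 was 2.42-fold and Mmp13 at least 2.17-fold higher with nori extract than with porphyran, with 0.885% of genes higher and 2.48% lower, and 0 members were lower. In colon Ccn2 was 2.54-fold higher, at 2.69, 2.52, 1.69 and 3.04 over the diets, and Col14a1 2.24-fold higher, with 1.76% of genes higher and 1.39% lower. In liver, brown fat and ileum 0 members passed 2-fold either way, where 1.38%, 1.22% and 1.34% of genes were higher and 0.496%, 1.53% and 1.96% lower. The members' median there was -0.01 in liver, -0.08 in brown fat and 0.13 in ileum. With 1 array per group this does not show that the supplements act alike.

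Tissues could be tested, since each has 4 arrays, by limma with tissue and diet as terms and Benjamini-Hochberg adjustment over 16813 genes. Each test below gives the log2 difference with its standard error, and a gene was called at an adjusted p under 0.05 and at least 1 log2. Tissue differences also hold slide differences. Mesenteric fat had the highest mean level over the 4 diets for 32 of the 46 members. For 12 of these its lowest array was above the highest of any other tissue. The same was not counted over all genes, so whether these counts are more than usual for mesenteric fat is not known.

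Mesenteric fat exceeded brown fat in 25 members and was lower in 1, with 20.8% of genes higher and 20.9% lower. The median difference of the members was 1.04 log2, against -0.15 over all genes. Thbs1 was higher by 3.48 ± 0.38 (limma, adjusted p = 9.9e-07), Col14a1, which regulates fibre spacing, by 2.87 ± 0.25 (limma, adjusted p = 1.1e-07) and Fn1 by 2.57 ± 0.25 (limma, adjusted p = 2.9e-07). Lamb3 was the 1 gene lower, by 1.14 ± 0.23 (limma, adjusted p = 0.00036). Tnc and Mmp9 are among the 25, and were above background on 1 and 0 of the 4 brown fat arrays. The fit used their dim signal as it stood, with no floor, so the size of these differences is uncertain. All 26 had the same direction between the HFD+PP arrays of the 2 fats, which share a slide. Those arrays are part of the fit that called the 26, so this is no separate check on slide. The type I and III collagen genes were not called: the difference of Col1a1 was 0.42 ± 0.41 (limma, adjusted p = 0.36), with levels of 3.84 to 5.51 and 3.61 to 4.95 that overlap. By its brightest probe Sparc had its highest mean in brown fat, at 9.20 to 9.30, above every array of the other tissues. The order of tissues was not taken for its other probes.

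Colon exceeded ileum in 7 members and was lower in 0, with 7.85% of genes higher and 7.34% lower. These were Thbs4, Col8a1, Postn, Ccn2, Col16a1, Loxl1 and Fn1. Thbs4, a thrombospondin of muscle and tendon, was higher by 5.63 ± 0.71 (limma, adjusted p = 1.8e-05), at 6.00, 6.05, 5.92 and 6.06 in colon and 0.55, 0.06, 0.45 and 0.44 in ileum. Postn was higher by 1.93 ± 0.26 (limma, adjusted p = 3.1e-05). Colon was alone on its slide, so slide and tissue cannot be told apart in this comparison.

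Liver was lower than the mean of the other tissues in 36 members and higher in 3, with 25% of genes lower and 19.4% higher. The 3 were Col18a1, higher by 4.39 ± 0.19 (limma, adjusted p = 1.8e-11), Fn1, by 3.62 ± 0.20 (limma, adjusted p = 2.3e-10), and Col14a1, by 1.46 ± 0.20 (limma, adjusted p = 7.8e-06). Col6a2 was lower by 4.19 ± 0.23 (limma, adjusted p = 2.6e-10) and Mmp2 by 3.07 ± 0.17 (limma, adjusted p = 3e-10). Of the 36, Tnc, Lox and Mmp9 were above background on 0 liver arrays, Col15a1, Col8a1, Col12a1 and Thbs4 on 1 and Mmp3 on 2, so that their levels there are at or near background. The liver means include the HFD array, on which 23 members were higher than under CD. Neighbours in the order of tissues often overlapped. For Col1a1 the order was mesenteric fat, brown fat, colon, ileum and liver, and the ranges of the first 2 and of brown fat and colon overlapped.

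**Figure D5:**
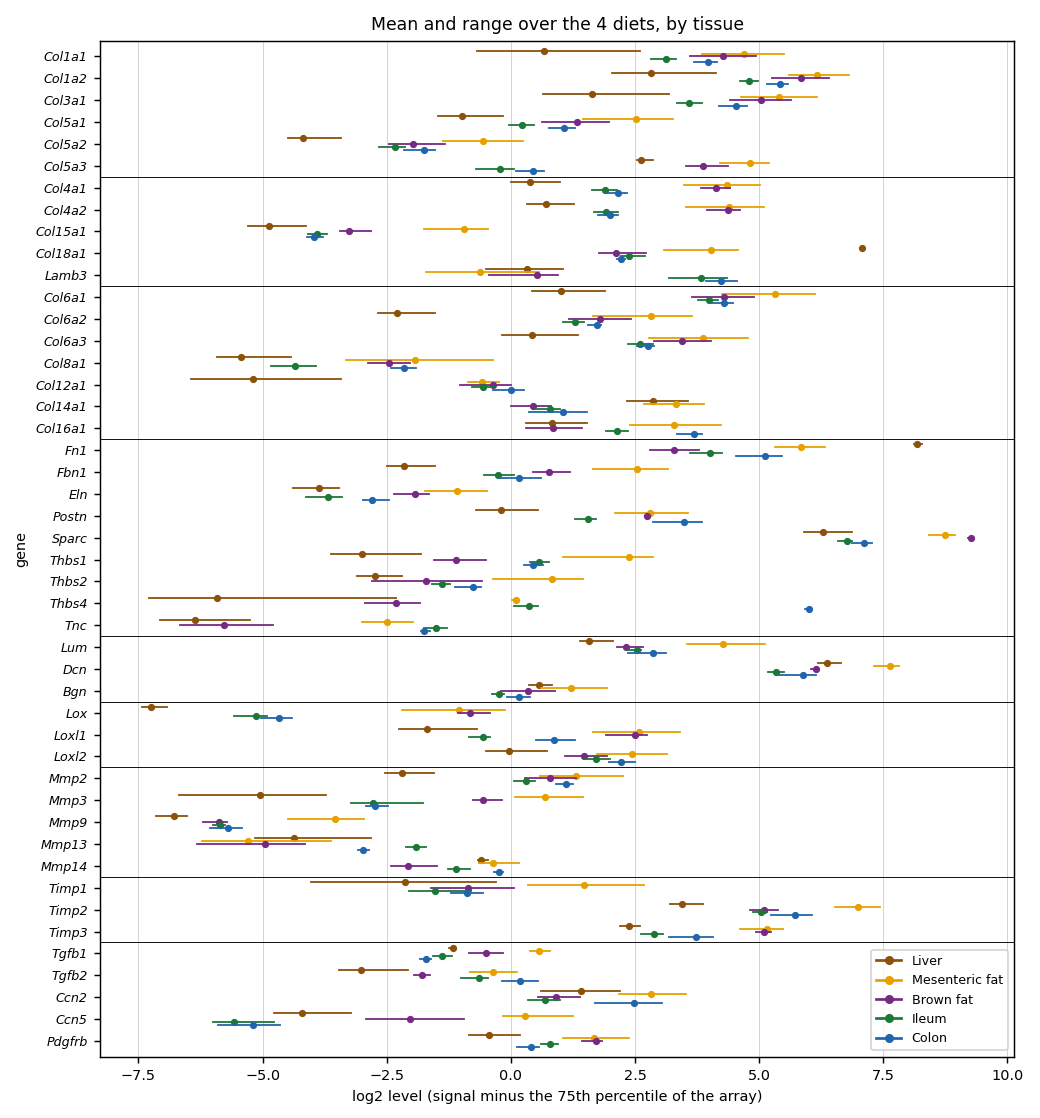
Mean (point) and range (line) of the level of each member over the 4 diets in each tissue, in log2 signal relative to the 75th percentile of the array. Liver is lowest for most genes but highest for Fn1, with a mean of 8.18, and Col18a1, with 7.07.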

How the data were processed

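Each array held Cy3-labelled RNA of 1 pool. Per the file headers the arrays were read with Agilent Feature Extraction 11.5.1.1, protocol GE1_1105_Oct12, which gave the deposited background-subtracted intensity per spot. The authors' series matrix is the same intensity times 1 factor per array (log2 0.916 to 1.65) and served as an alternative. It is linear and not centred, and what the factor was set to is not given in the sources used here. Control spots (3671 of 62976 per array) and outlier spots were left out, and no spot was saturated. Probes were named by accession through the RefSeq table of GRCm38.p6 (28026 of 55681 probes), and the brightest probe stood for a gene. Intensity was taken as log2 minus the 75th percentile of the array. Tissues were compared with limma 3.58.1 in R 4.3.3, over genes well above background on all 4 arrays of a tissue, a filter chosen after the values were seen. On simulated data 91.0% and 96.0% of genes changed by 1.5 and 3 log2 in the comparison of the 2 fats (16737 genes) were recovered, with 6 false calls. Alternatives were normexp background correction (on the median spot signal, since no mean signal is held), quantile normalization, the authors' values, other filters on dim probes, the mean of all probes and, for tissues, other terms and left-out diets. In each comparison up to 5 members with the largest differences in each direction are named, with levels on every array for those that rose in at least 4 tissues or against the rest, and others were named after their values were seen. The members and lists were chosen with earlier results of these data known. The 4 arrays of a tissue differ in diet, so p-values measure only the spread between these arrays. The number of arrays limits the precision.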

Additional observations from a re-analysis of the deposited data

Results flagged for a closer look

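Of the members, 2 moved in opposite directions in different tissues under the high fat diet against the control diet. Timp1 differed by 3.74 log2 in liver, 2.33 in mesenteric fat and 1.68 in brown fat, and by -1.25 in ileum. Mmp3 differed by at least 1.37 log2 in liver, by 1.36 in mesenteric fat and by -1.46 in ileum. The median over the members was 1.15 in liver, 1.43 in mesenteric fat and 0.85 in brown fat, and -0.41 in ileum. Each of these is 1 array against 1 array, so the difference between tissues was not tested.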

How the results depend on the processing

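With normexp background correction fewer members passed 2-fold: 13 in liver under HFD against CD, 4 with porphyran and 4 with nori extract against HFD, 5 in mesenteric fat with porphyran, 1 there between the supplements, 10 in brown fat under HFD against CD and 0 there with either supplement. Under the same correction 0 passed in colon under HFD against CD, and in ileum 1 rose and 0 fell, in place of 1 and 2. Fewer of all genes passed as well. Under HFD against CD 176 genes rose in liver in place of 535, and 304 in brown fat in place of 936. The correction adds an offset of 50 to the signal. The cause of the lower counts was not tested. Quantile normalization gave 0 in brown fat with porphyran and 1 in colon with porphyran, which was lower. Requiring both arrays well above background, which tests fewer genes, gave 1 in mesenteric fat between the supplements and 0 in colon under HFD against CD. Without a filter on dim probes there were 2 lower in liver between the supplements, 2 lower in brown fat with porphyran and 1 higher there between the supplements. Of the 131 member differences past 2-fold, 76 were still past it with normexp, 123 with quantile normalization, 128 with the authors' values and 117 with both arrays above background, and none changed sign in these. The 3 tissue counts stayed within 1.5 times under the alternatives run, left-out diets included. Slide as a block was run for the 2 fats only, since colon is alone on its slide. No paired analysis was possible because each tissue and diet has 1 array and the labels give no replicate number to pair diets by; the tissue comparisons hold diet as a term and so compare tissues within a diet. Low signal limits Tnc, Lox and Mmp9 in liver, which have no level above background there.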
